A study of Mus musculus with 58 samples.

Results

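The comparison set prefrontal cortex of mice labelled heterozygous for Tanc2 and given lithium (HT lithium) against prefrontal cortex of mice labelled wild type and given vehicle (WT vehicle), and asks how far the treated mutant stands from the untreated normal state. It uses 18 of the 58 libraries of the series, chosen by genotype and drug alone: 9 HT lithium libraries (5 female, 4 male) and 9 WT vehicle libraries (5 female, 4 male). All mice carried the strain label C57BL/6J, and tissue was taken at postnatal day 25. Pups were exposed from day 3 to day 24, for 3 weeks, through the milk of the dam, and the vehicle is not described. The labels name neither litters nor dams, so pups of a litter may be counted as separate mice. The limma p-values rest on a spread pooled over all 58 libraries in 12 groups of genotype, drug and sex. Genotype and drug both differ between the groups. The groups with 1 of these changes, HT vehicle and WT lithium (10 libraries each), are given beside the comparison where they bear on it. The series also holds mice of both genotype labels given fluoxetine over the same days. HT fluoxetine (10 libraries) is compared at the end, and WT fluoxetine females are used where Gm10221 reads are described.

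Tanc2 encodes a large scaffold protein of the postsynaptic density, the protein layer under excitatory synapses that anchors receptors and kinases. Lithium is a mood stabiliser that inhibits inositol phosphatases, which free inositol from inositol phosphates for reuse, and the kinase GSK3, which restrains WNT signalling. Prefrontal cortex at this age is a mixture of projection neurons, interneurons, glia and vessel cells, and its oligodendrocytes are still laying down myelin. In such bulk tissue, fewer cells of a type and less RNA per cell cannot be told apart.

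Expression is given as normalized reads, that is, reads divided by a size factor of the library, which are not per length and so are compared between libraries and not between genes. Differences are on the log2(value + 1) scale, HT lithium minus WT vehicle with females and males weighed equally, followed by their SE. A gene passed where its limma p, adjusted by the Benjamini-Hochberg method over 17925 of the 18088 genes in the table, was under 0.05. Fold changes are computed from the same scale.

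Recovered totals (rounded) ran from 24370000 to 30180000 reads in HT lithium and from 26950000 to 30390000 in WT vehicle. Markers of cortical projection neurons were present in every library of the series (Slc17a7 between 44390 and 55690), and Xist and Ddx3y matched the sex label in 58 of 58 libraries. HT lithium female 4 stood apart: its short transcripts were raised against its long ones by 0.46 (log2; the 20% of genes with the shortest transcripts minus the 20% with the longest, relative to the mean over libraries), while the whole HT lithium group ran from -0.09 to 0.46 with a median of 0.05 and the WT vehicle group from -0.14 to 0.01 with a median of -0.07. Reads of Gm10221, a predicted gene model on chromosome 5, ran from 145.7 to 256.1 in the HT lithium libraries and were 0 in all 9 WT vehicle libraries. Across the series Gm10221 had reads in every lithium library, in 5 of 5 HT fluoxetine females and 3 of 5 WT fluoxetine females, and in no vehicle library and no fluoxetine male. Lithium against vehicle and Gm10221 reads therefore cannot be told apart in these groups. HT lithium females can be set against HT fluoxetine females with reads in all libraries of both, and this comparison is given at the end.

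**Figure D1:**
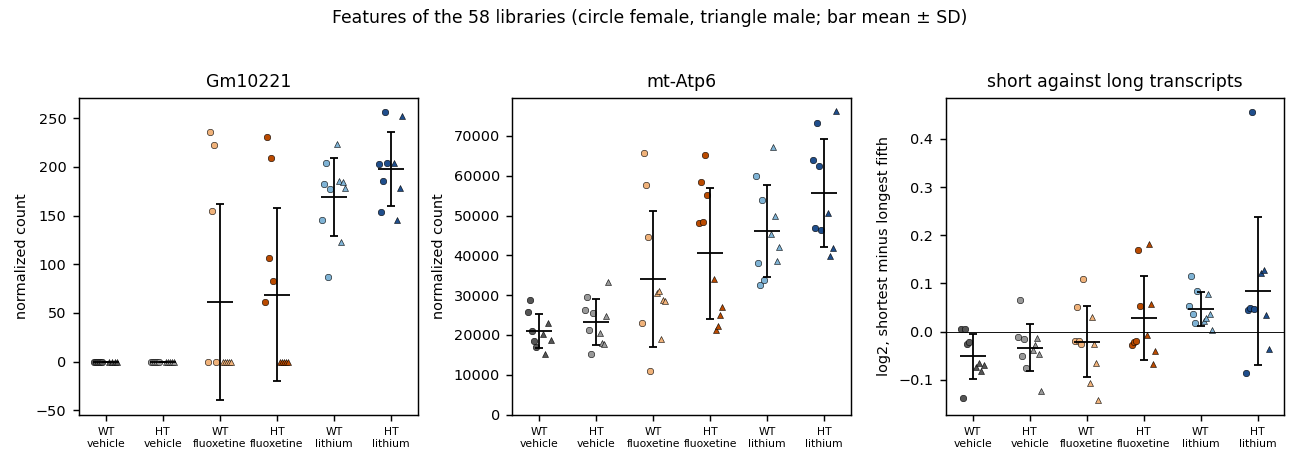
Gm10221 reads, mt-Atp6 reads (both in normalized reads) and the short-minus-long transcript shift (log2) in each library of the 6 combinations of genotype and drug, with circles for females, triangles for males and bars for the mean ± SD of the group. Every lithium library has Gm10221 reads and no vehicle library does, and HT lithium female 4 has the highest shift, 0.46.

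Tanc2 itself (ENSMUSG00000053580, GRCm38 chromosome 11, 105589986 to 105929304, plus strand) did not pass. Its level ran from 6240 to 9106 normalized reads with a median of 8220 in HT lithium, and from 6939 to 8005 with a median of 7680 in WT vehicle. The ranges overlapped, and the means were 7953 ± 852.6 and 7541 ± 386.6 (SD, n = 9 each). The difference was 0.07 ± 0.045 with an adjusted p of 0.283. Without HT lithium female 4 it was 0.11 with an adjusted p of 0.0634, and with a trend on transcript length and GC content removed from each library it was 0.16 with an adjusted p of 0.00133, which passes. HT vehicle libraries averaged 8093 and WT lithium libraries 7468, so the mean Tanc2 level was not lower in either HT group than in its WT counterpart. The allele is not described in the sources used here, and HT below names the label.

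Between HT lithium and WT vehicle 2443 genes passed, which is 13.6% of the 17925 tested. Of these, 1282 were higher in HT lithium (7.15% of genes tested) and 1161 were lower (6.48%). The differences were mostly small: the median size over all genes was 0.0992 (log2), 338 of all genes differed by more than 0.5 and 57 by more than 1. For 123 genes every HT lithium library was above every WT vehicle library (0.686% of genes tested), and for 60 every one was below (0.335%). Without HT lithium female 4 the number that passed was 1706, of which 930 were higher and 776 lower. With only the 18 libraries in the fit it was 1560. With the presence of Gm10221 reads as a term it was 5 beside the 12 groups, where WT fluoxetine females alone set the term, and 0 with sex additive, and with either term no gene of the lists below passed.

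**Figure D2:**
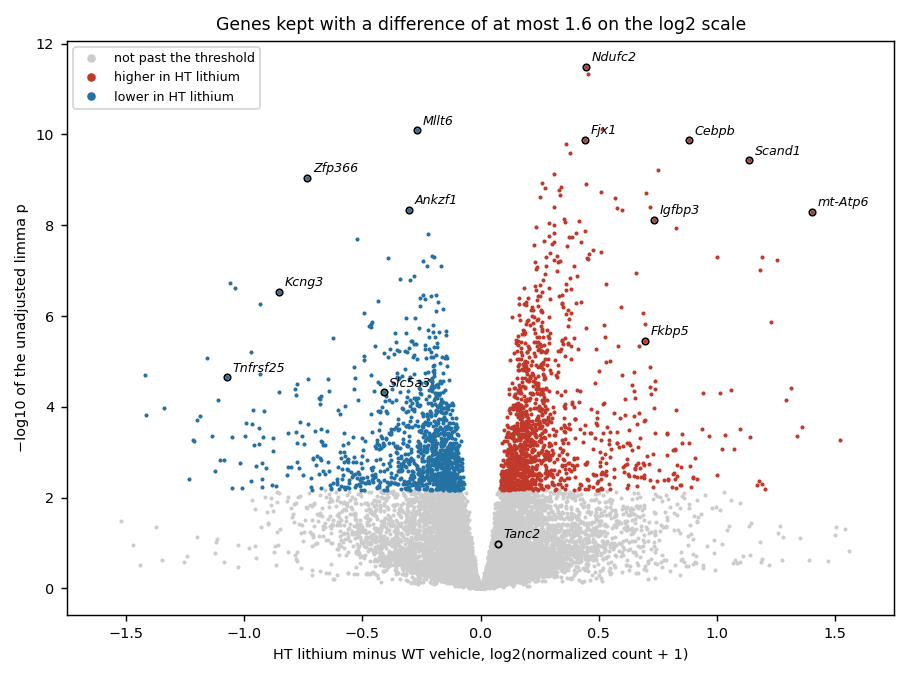
Difference between HT lithium and WT vehicle (log2, x axis) against the -log10 of the limma p (y axis) for 17898 genes, with passing genes coloured and 27 genes beyond 1.6 (log2) not drawn. The 1282 higher and 1161 lower genes lie mostly within 0.5 of zero.

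Each sex showed the difference on its own with fewer calls: 657 genes passed in females (3.67% of those tested) and 377 in males (2.1%). No gene passed the test of the sex difference itself in limma, where 435 had an unadjusted p under 0.05; edgeR gave 0 and DESeq2 2. The female count fell to 104 without HT lithium female 4, 288 without WT vehicle female 2, 425 without WT vehicle female 3 and 367 without WT vehicle female 5. The male count was 142 without HT lithium male 2, 242 without HT lithium male 3, 194 without WT vehicle male 1, 128 without WT vehicle male 2 and 241 without WT vehicle male 4, and it was 593 without HT lithium female 4 and 683 without HT lithium male 4.

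The 2 changes that make up the comparison are given side by side. Lithium in wild type mice (WT lithium minus WT vehicle) gave 1339 passing genes, 7.47% of those tested, and the genotype under vehicle (HT vehicle minus WT vehicle) gave 0 in limma and edgeR and 3 in DESeq2, with 814 genes at an unadjusted p under 0.05. Lithium within the HT label (HT lithium minus HT vehicle) gave 2919, or 16.3%. HT lithium minus WT lithium gave 0 in limma and edgeR and 14 in DESeq2, with 2006 at an unadjusted p under 0.05 and a smallest adjusted p of 0.0697. That count of 0 became 2 without HT lithium female 2, 5 without HT lithium male 1 and 40 without HT lithium male 4. The test of whether lithium acted differently in the 2 genotypes gave 0 genes in limma and edgeR and 4 in DESeq2, with 1196 at an unadjusted p under 0.05. These comparisons share libraries with one another and are therefore set side by side only.

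The contrast of WT lithium with HT vehicle has the same drug difference, the opposite genotype difference and no library in common with HT lithium against WT vehicle. Both come from the same fit and share its spread for each gene, so their calls are not independent of each other. It gave 2188 passing genes (12.2% of those tested), 1118 higher (6.24%) and 1070 lower (5.97%). Of the genes that were higher in HT lithium than in WT vehicle, 553 were also higher in WT lithium than in HT vehicle, which is 43.1% of the first list and 49.5% of the second. Of the lower genes, 404 were lower in both, or 34.8% and 37.8% of the lists, and 0 genes passed in opposite directions. Gm10221 reads follow the drug in this contrast as well.

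The named genes with the smallest p among those that rose included several subunits of the respiratory chain. Ndufc2, an accessory subunit of respiratory complex I, had the smallest p of the named higher genes. Its level ran from 1373 to 1831 with a median of 1536 in HT lithium, and from 1002 to 1253 with a median of 1181 in WT vehicle. All 9 HT lithium libraries were above all WT vehicle libraries, and the difference was 0.45 ± 0.049 (1.36-fold, adjusted p = 2.71e-08). Ndufv2, a core iron-sulfur subunit of complex I, ran from 2564 to 3627 (median 2871) against 2062 to 2432 (median 2292). The ranges were separate again, and the difference was 0.36 ± 0.045 (adjusted p = 3.59e-07). Cox5b, a subunit of cytochrome c oxidase (complex IV), ran from 4337 to 6230 (median 4551) against 3354 to 3905 (median 3614), without overlap, with a difference of 0.38 ± 0.048 (adjusted p = 5.08e-07). HT lithium female 4 was the highest library for Ndufc2, Ndufv2 and Cox5b, and without it they differed by 0.42, 0.32 and 0.33 and still passed. The same library was the highest of the HT lithium group for Cebpb and Igfbp3 and the lowest for Zfp366, which are described below.

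Cebpb, a transcription factor of inflammatory and memory-related gene induction, rose 1.84-fold from a low level. It ran from 86.09 to 149.9 normalized reads with a median of 105.4 in HT lithium and from 47.79 to 74.37 with a median of 54.31 in WT vehicle, so the groups did not overlap (0.88 ± 0.11, adjusted p = 3.44e-07). Scand1, which encodes a small nuclear SCAN-domain protein, ran from 246.7 to 460.3 (median 327.8) against 123.4 to 191.6 (median 146.7). It rose 2.2-fold without overlap (1.14 ± 0.147, adjusted p = 6.62e-07). H1fx, a linker histone, ran from 358.6 to 547.7 (median 415) against 234 to 350.1 (median 278), a rise of 0.57 ± 0.079, and Jund, a member of the AP-1 transcription factors, from 2132 to 3382 (median 2576) against 1676 to 2122 (median 1932), a rise of 0.48 ± 0.073. Neither overlapped.

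Basp1, a protein of growth cones and presynaptic membrane, was among the most abundant genes with separate groups. It ran from 14620 to 18180 normalized reads (median 15400) in HT lithium and from 11630 to 13460 (median 12710) in WT vehicle, a rise of 0.33 ± 0.045 (adjusted p = 1.69e-06). Fjx1, a Golgi-associated inhibitor of dendrite growth, ran from 2326 to 3590 (median 2785) against 1898 to 2313 (median 2149) and rose by 0.44 ± 0.055 without overlap. Igfbp3, a secreted carrier of insulin-like growth factors, ran from 650.1 to 1335 (median 901.4) against 506.6 to 696.9 (median 554.4). It rose 1.66-fold (0.73 ± 0.106, adjusted p = 4.36e-06), and 1 WT vehicle library, male 3, reached into the HT lithium range. The other higher genes named for a small p, namely Trir, C1qbp, Gnptg, Usmg5, Ndufab1, Acbd6 and Zfp580, rose by 0.26 to 0.51 with no overlap of the groups in any of them.

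**Figure D3:**
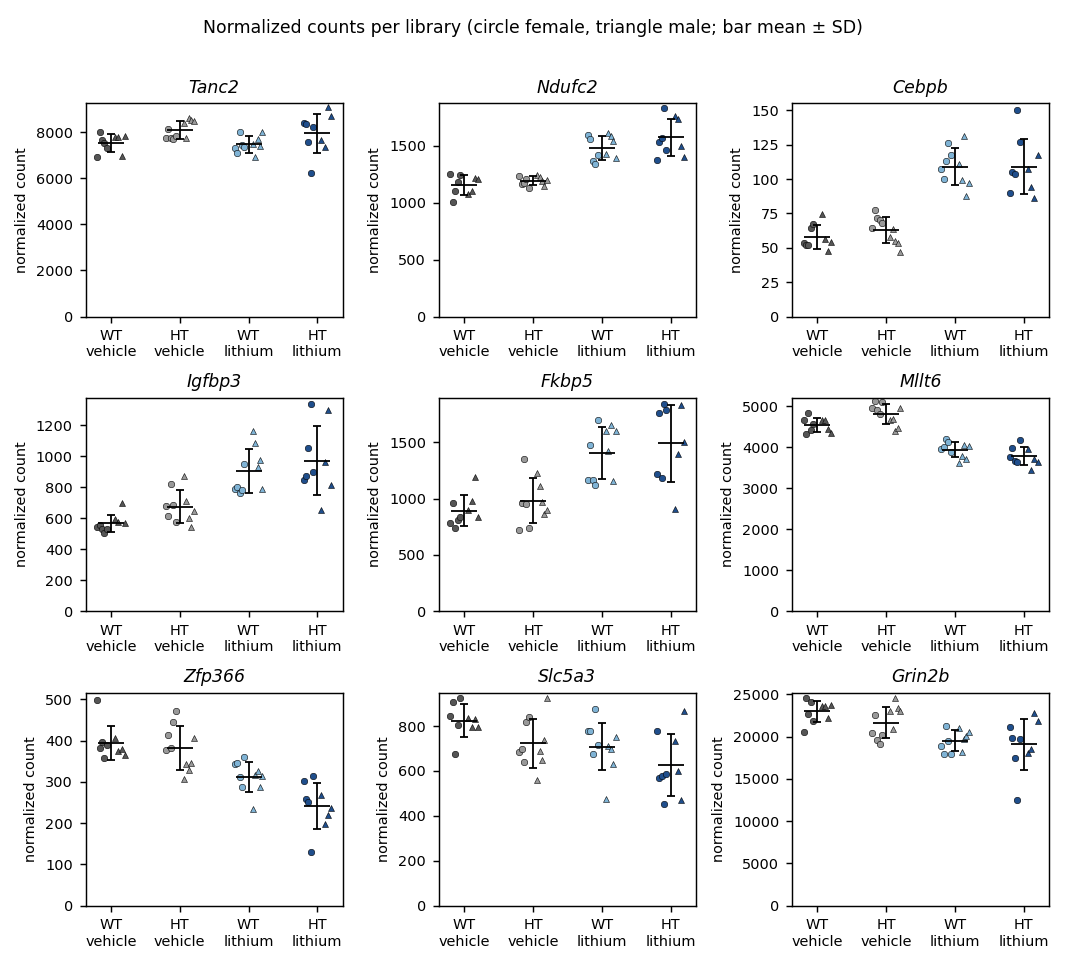
Normalized reads of 9 genes in each library of WT vehicle, HT vehicle, WT lithium and HT lithium, with circles for females, triangles for males and bars for the mean ± SD of the group. Ndufc2 and Cebpb lie above, and Mllt6 and Zfp366 below, the WT vehicle libraries in all 9 HT lithium libraries, while Tanc2 overlaps across the groups.

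Among the genes that fell, Mllt6 had the smallest p of those named. Mllt6, a PHD-finger protein that partners the histone methyltransferase Dot1l, ran from 3459 to 4187 normalized reads (median 3722) in HT lithium and from 4325 to 4844 (median 4570) in WT vehicle. No libraries overlapped, and the difference was -0.27 ± 0.033 (adjusted p = 2.9e-07). Zfp366, a zinc-finger repressor, ran from 131 to 315.4 (median 250.8) against 357.1 to 498.4 (median 381.8), a fall to 0.601 of the WT vehicle level (-0.73 ± 0.098, adjusted p = 1.23e-06), also without overlap. Brwd1, a bromodomain protein of chromatin, ran from 2688 to 3659 (median 3455) against 3850 to 4173 (median 3915) and fell by 0.23 on the log2 scale with the groups apart. Taf15, an RNA-binding protein of the FET family, ran from 1026 to 1271 (median 1135) against 1281 to 1486 (median 1403), with a difference of -0.30 ± 0.049 and no overlap.

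Kcng3, a silent subunit that modifies Kv2 potassium channels, was low but separate: 21.25 to 64.67 normalized reads (median 42.76) in HT lithium and 68.74 to 85.49 (median 73.67) in WT vehicle, or 0.553 of the WT vehicle level (-0.85 ± 0.145, adjusted p = 5.33e-05). Dock6, an exchange factor for small GTPases, ran from 525 to 675.4 (median 583.3) against 677.4 to 844.7 (median 745.3), a difference of -0.39 ± 0.061. Apln, the ligand of the apelin receptor in vessels, ran from 277 to 626.3 (median 437.7) against 608.9 to 895.7 (median 728.3), overlapped at the edge and fell to 0.583 of the WT vehicle level (adjusted p = 0.00137). Tnfrsf25, a death-domain receptor, ran from 41.16 to 199.4 (median 98.45) against 111.3 to 271.9 (median 199.4) and fell to 0.475 (adjusted p = 0.00108) with overlapping ranges. Gramd1a, Atp8b2, Pkd1, Lman2l and Cds2 had differences between -0.17 and -0.24, each without overlap, and Ankzf1 and Cpne1 differed by -0.30 and -0.34 with overlapping groups.

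The genes that rose and those that fell differed in transcript length. Higher genes had a median transcript length of 2174 bases, lower genes 4630 and genes that did not pass 3169, while their median GC contents were 49.2%, 50% and 49.3%. Among the 20% of genes with the shortest transcripts (156 to 1802 bases) 13.7% were higher and 2.4% lower. Among those with the longest (5043 to 123179 bases) 1.95% were higher and 14.1% lower. The groups of short genes described next are given with the count that remained when a trend on length and GC content was removed from each library. Of all genes tested 7.15% were higher and 6.48% lower, so a list with shares near these does not stand out. With that trend removed Cds2, Meg3, Rian, Sgk1, Nr3c1, Per3, Calr, Psmb2, Tsc1, Tsc2, Cacng8 and Grin2b, all described here, no longer passed (adjusted p from 0.0515 to 0.762). With only the 18 libraries in the fit Psmb2, Tsc2 and Nr3c1 did not pass either (adjusted p from 0.0501 to 0.0744). The part of the transcript length shift in these results was not tested.

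**Figure D4:**
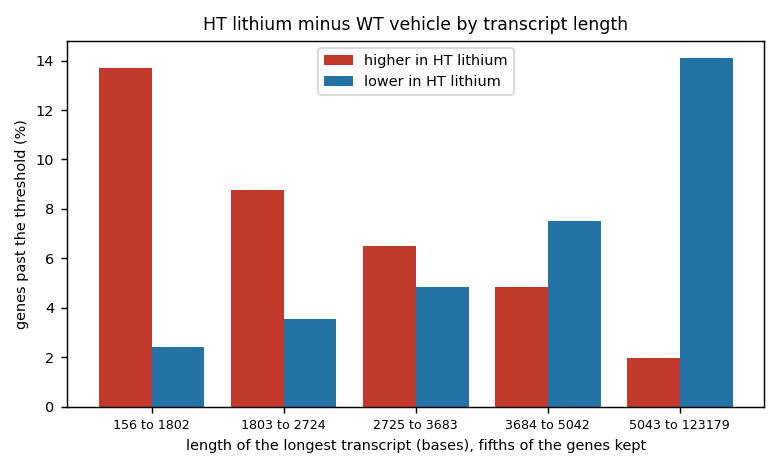
Share of genes that were higher or lower in HT lithium than in WT vehicle (percent of the genes in each of 5 equal bins, y axis) by length of the longest transcript (bases, x axis). The share of higher genes falls from 13.7% to 1.95% from the shortest to the longest bin, and the share of lower genes climbs from 2.4% to 14.1%.

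Nuclear genes of the respiratory chain, which passes electrons to oxygen and drives ATP synthesis, had many calls, none of them lower. Of the 38 complex I subunits tested 20 passed, all higher, and 36 had a positive difference; the list's median was 0.16, against -0.001 over all genes. For complexes II to V, 24 of 43 nuclear subunits passed, all higher, with a median of 0.17. Atp5c1 and Atp5f1, 2 subunits of ATP synthase, ran from 5527 to 7601 (median 5980) against 4963 to 5439 (median 5237) and from 6234 to 8634 (median 6898) against 5572 to 6392 (median 5990), rises of 0.23 ± 0.038 and 0.24 ± 0.041. Cox5a, the partner of Cox5b in complex IV, rose by 0.29 ± 0.043, and Ndufa3 and Ndufb2 of complex I by 0.34 ± 0.06 and 0.35 ± 0.067.

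Without HT lithium female 4, 12 complex I and 21 complex II to V genes passed, with medians of 0.13 and 0.13. With the length and GC trend removed, 12 and 11 were higher and 1 of each list lower, with medians of 0.08 and 0.07. The median transcript lengths of the lists were 1026 and 1231 bases. In WT lithium against WT vehicle the medians were 0.14 and 0.16, and in HT vehicle against WT vehicle 0.005 and -0.008. Among WT fluoxetine females, the 3 libraries with Gm10221 reads minus the 2 without gave -0.10 and -0.11.

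A related list of 27 short mitochondrial matrix and assembly genes had 12 higher and 0 lower. Mpc1 and Mpc2, which together form the carrier that brings pyruvate into mitochondria, ran from 2921 to 3447 (median 3248) against 2478 to 2949 (median 2777) and from 1451 to 1885 (median 1583) against 1170 to 1435 (median 1258). They rose by 0.23 ± 0.037 and 0.32 ± 0.051, and the Mpc2 groups did not overlap. Chchd10, a protein of the mitochondrial intermembrane space, rose by 0.40 ± 0.076. The list's count was 7 without HT lithium female 4 and 7 without HT lithium male 2, and 4 higher and 2 lower with the length and GC trend removed.

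The 13 protein genes of the mitochondrial genome had calls in both directions: 1 was higher and 3 were lower. mt-Atp6, a subunit of ATP synthase, ran from 39870 to 76290 normalized reads (median 50740) against 15220 to 28780 (median 20230) and rose 2.64-fold without overlap (1.40 ± 0.2, adjusted p = 3.11e-06). mt-Nd4l, mt-Nd6 and mt-Co2, subunits of complexes I and IV, differed by -0.69 ± 0.158, -0.38 ± 0.098 and -0.67 ± 0.183. High mt-Atp6 went with Gm10221 reads outside lithium too: HT fluoxetine females, which have them, ran from 48160 to 65130, and HT fluoxetine males, which do not, from 21180 to 34070. Reads of mitochondrial genes can be shared with nuclear copies, so these values are uncertain.

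The promoters of the 2 complex I genes with the smallest p are shown because their transcripts rose together. They are the 250 bases before the start site from RefSeq on GRCm38.p6, at chr7:97399753-97400002 on the plus strand for Ndufc2 and chr17:66101560-66101809 on the minus strand for Ndufv2, 5′ to 3′, with matches to the ETS motif CCGGAAG or the NRF1 core GCATGCGC on either strand to be set in capitals. Neither holds a match in this window.
Ndufc2: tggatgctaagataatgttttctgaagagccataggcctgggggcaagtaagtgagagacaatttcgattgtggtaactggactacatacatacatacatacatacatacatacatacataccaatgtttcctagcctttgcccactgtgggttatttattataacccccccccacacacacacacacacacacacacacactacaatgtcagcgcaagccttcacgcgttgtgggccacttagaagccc
Ndufv2: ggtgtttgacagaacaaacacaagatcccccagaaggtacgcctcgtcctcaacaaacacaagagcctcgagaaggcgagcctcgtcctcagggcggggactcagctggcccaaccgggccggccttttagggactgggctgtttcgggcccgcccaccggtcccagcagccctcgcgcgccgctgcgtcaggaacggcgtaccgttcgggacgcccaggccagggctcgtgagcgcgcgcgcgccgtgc
Of the 81 nuclear respiratory chain genes tested, 68 had a promoter in the RefSeq table, of which 16.2% held the ETS motif and 13.2% the NRF1 core. Among all 27025 promoters in that table the shares were 7.05% and 2.32%, and among the 12902 of the 17925 genes tested that had a promoter there they were 12% and 4.01%. Too few genes matched for a comparison to be drawn from these shares. Of the 38 with a promoter among the 44 that passed, 5.26% held the ETS motif and 10.5% the NRF1 core. A match is a run of letters and not a measured binding site.

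Cytosolic ribosomal proteins, also encoded by short transcripts, had 37 higher genes of 80. In the large subunit 20 of 47 genes were higher and 0 lower (median 0.13), and in the small subunit 17 of 33 were higher and 1 lower (median 0.18). Rpl35 ran from 1698 to 2442 normalized reads (median 1855) in HT lithium and from 1384 to 1534 (median 1495) in WT vehicle, a rise of 0.35 ± 0.052 without overlap (adjusted p = 4.61e-06). Rps26 ran from 1981 to 3352 (median 2104) against 1364 to 1980 (median 1715) and rose by 0.41 ± 0.066, and Rps24 and Rps2 rose by 0.26 ± 0.046 and 0.24 ± 0.043, all without overlap. The exception was Rps6, the subunit that S6 kinase phosphorylates, which ran from 3414 to 3848 (median 3487) against 3804 to 4323 (median 4026) and fell by 0.17 on the log2 scale (adjusted p = 0.0075).

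The large-subunit count was 15 without HT lithium female 4. The small-subunit count was 11 without HT lithium female 4 and 11 without HT lithium male 2, with Rps6 lower in both. With the length and GC trend removed the counts were 16 higher and 3 lower, and 10 higher and 4 lower. In HT vehicle against WT vehicle the list medians were 0.04 and 0.04, and in WT lithium against WT vehicle 0.12 and 0.13. Ribosomal protein genes have many processed copies in the genome among which reads can be divided, so single values are uncertain. The promoter of Rpl35 (RefSeq, GRCm38.p6, chr2:39005132-39005381, minus strand) is shown as that of the ribosomal gene with the smallest p among those with separate groups; its capitals mark a match to the ETS motif, read on the opposite strand. Rpl13 had a smaller adjusted p (2.86e-06, a rise of 0.31 ± 0.043) with overlapping groups, and its promoter window holds no match to either motif.
Rpl35: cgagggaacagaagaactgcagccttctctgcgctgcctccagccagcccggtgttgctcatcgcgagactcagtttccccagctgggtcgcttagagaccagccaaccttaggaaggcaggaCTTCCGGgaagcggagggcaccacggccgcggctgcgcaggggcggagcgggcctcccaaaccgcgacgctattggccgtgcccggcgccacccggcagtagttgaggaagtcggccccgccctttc
Of the 80 ribosomal genes 60 had a promoter in the table, of which 30% held the ETS motif and 0% the NRF1 core. Of the 24 with a promoter among the 37 that rose, 41.7% held the ETS motif. Among all genes tested that had a promoter there the ETS share was 12%. Many genes lack an entry, so no comparison is drawn.

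The proteasome, the complex that degrades ubiquitin-tagged proteins, had 8 of 31 subunits higher and 0 lower, with a median of 0.06. Psmb1, a subunit of its catalytic core, ran from 2550 to 3455 (median 2844) against 2265 to 2612 (median 2366) and rose by 0.26 ± 0.048 (adjusted p = 0.000197). Psma7 and Psmb2 rose by 0.18 ± 0.042 and 0.13 ± 0.034. The count was 7 without HT lithium female 4 and 3 with the length and GC trend removed.

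Of 25 glucocorticoid-responsive genes 8 were higher in HT lithium and 1 was lower, with a median of 0.11. Tested within each sex, 8 were higher and 0 lower in females, and 0 passed in males. Fkbp5, a cochaperone that is induced by the glucocorticoid receptor and dampens it, ran from 906.1 to 1840 normalized reads (median 1505) in HT lithium and from 738.7 to 1189 (median 839.9) in WT vehicle. It rose 1.62-fold (0.69 ± 0.134, adjusted p = 0.000304); the lowest 2 HT lithium libraries, male 1 and female 3, lay within the WT vehicle range. Sult1a1, a sulfotransferase, ran from 207.5 to 420 (median 366.4) against 184.7 to 359.4 (median 225.3) and rose by 0.52 ± 0.136, with overlap. Cebpd, a relative of Cebpb, ran from 77.51 to 149.9 (median 103.4) against 57.18 to 88.6 (median 68.1), a rise of 0.54 ± 0.149. Klf9, a Krüppel-like transcription factor, rose by 0.18 ± 0.05 and Map3k6, a stress kinase, by 0.63 ± 0.175, while Nr3c1, the receptor itself, was the 1 gene that fell (-0.22); Nr3c1 no longer passed without HT lithium female 4, HT lithium male 2, HT lithium male 3 or WT vehicle male 4. The list median was 0.25 in females and 0.06 in males, 0.17 in WT lithium against WT vehicle and 0.02 in HT vehicle against WT vehicle. Per1 and Ddit4, which are also on the list, did not pass and differed by -0.09 ± 0.063 and -0.03 ± 0.091 with adjusted p of 0.357 and 0.854.

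Of 30 genes of the unfolded protein response, which raises chaperones of the endoplasmic reticulum, 5 were higher and 1 lower, with a median of 0.07. When the length and GC trend was removed 3 were higher and 0 lower. The lower call was also lost with only the 18 libraries, in edgeR and in DESeq2; it held without HT lithium female 1, female 2 or male 4 or WT vehicle female 1 or male 3, and was lost without each of the other libraries. Pdia3, a disulfide isomerase, ran from 5668 to 6346 (median 6093) against 5038 to 5903 (median 5314) and rose by 0.17 ± 0.033 (adjusted p = 0.000379). Hspa5, the main lumenal chaperone, ran from 7376 to 8961 (median 8180) against 6117 to 8488 (median 6830), a rise of 0.25 ± 0.064, and Dnajb11 and Calr rose by 0.16 ± 0.035 and 0.15 ± 0.043.

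Of 30 genes of cholesterol synthesis and uptake 4 fell and 0 rose (6.48% of all genes tested fell), 3 had a positive difference, and the median was -0.08. The count was also 4 with the length and GC trend removed. Srebf2, the transcription factor that drives the pathway, ran from 4986 to 6395 (median 6050) against 6073 to 7006 (median 6679), and Sc5d, a late desaturase of the pathway, from 2130 to 2804 (median 2527) against 2593 to 3045 (median 2839); they differed by -0.17 ± 0.04 (adjusted p = 0.00353) and -0.20 ± 0.054 (adjusted p = 0.00985), with overlapping ranges. The list median was -0.11 in HT vehicle against WT vehicle, where no gene passed, and -0.05 in WT lithium against WT vehicle.

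Among 17 enzymes and carriers of inositol, the pathway that lithium inhibits, 4 were higher and 2 lower. Slc5a3, the sodium-coupled importer of myo-inositol, ran from 454.4 to 866.2 normalized reads (median 587.2) in HT lithium and from 677.1 to 925.5 (median 833.3) in WT vehicle. It fell to 0.752 of the WT vehicle level (-0.41 ± 0.093, adjusted p = 0.00183), with overlapping ranges. Inpp5f, an inositol polyphosphate phosphatase, and Pgp, a phosphoglycolate phosphatase that the list also holds, rose by 0.20 ± 0.05 and 0.15 ± 0.04, and Ppip5k1, a kinase that makes inositol pyrophosphates, differed by -0.15 ± 0.037. Impa1, the monophosphatase that lithium inhibits, did not pass (1860 to 2172 against 1781 to 2087, adjusted p = 0.278).

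In the GSK3 and WNT list 5 of 36 genes were lower and 0 higher, with a median of -0.07. Lef1, a transcription factor at the end of the WNT pathway, ran from 74.36 to 160.2 (median 117.9) against 124.7 to 194.1 (median 166.2) and fell to 0.705 of the WT vehicle level (-0.50 ± 0.135, adjusted p = 0.00857). Gsk3b did not pass (-0.04 ± 0.043, adjusted p = 0.611). The count for the list was 2 without HT lithium female 4 or WT vehicle male 2, 1 without HT lithium male 2, and 3 without any of HT lithium male 3, WT vehicle female 3, WT vehicle male 1 and WT vehicle male 3. Removing the length and GC trend left 1 gene lower and a median of -0.03, and with only the 18 libraries 3 were lower. Lef1 passed without each library in turn.

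In the mTOR list of 23 genes 2 were higher (8.7%) and 4 lower (17.4%), beside 7.15% and 6.48% of all genes tested. Rheb, the small GTPase that activates mTOR, ran from 2709 to 3228 (median 2856) against 2304 to 2840 (median 2596) and rose by 0.17 ± 0.042 (adjusted p = 0.00459). Tsc1 and Tsc2, which form the complex that restrains Rheb, differed by -0.14 ± 0.036 and -0.10 ± 0.028, and Eif4ebp2, a translation repressor that mTOR phosphorylates, by -0.17 ± 0.039. Once the length and GC trend was removed 4 genes of the list were higher and 1 lower, and Tsc1 and Tsc2 did not pass (adjusted p = 0.208 and 0.338). Tsc2 also missed with only the 18 libraries (adjusted p = 0.0501), where 1 gene was higher and 2 lower. The higher count was 1 without any of HT lithium female 4, HT lithium male 4, WT vehicle female 2 and WT vehicle male 2. In WT lithium against WT vehicle Rheb, Tsc1 and Tsc2 differed by 0.10, -0.06 and -0.01, none of which passed.

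Glutamate receptors carry fast excitation and, in the metabotropic class, slower signals. Of 15 NMDA and metabotropic receptor genes 0 were higher and 3 lower. Grin2b, the NMDA receptor subunit that predominates early in development, ran from 12450 to 22750 normalized reads (median 19690) in HT lithium and from 20530 to 24590 (median 23580) in WT vehicle, a fall to 0.826 (-0.28 ± 0.07, adjusted p = 0.00573) with overlap. The lowest Grin2b value was that of HT lithium female 4. Of 18 AMPA receptor and auxiliary genes 3 were higher and 0 lower, all of them auxiliary subunits of the Cacng family: Cacng8 ran from 1098 to 1432 (median 1241) against 962.4 to 1215 (median 1091) and rose by 0.22 ± 0.065, and it passed without each library in turn. The NMDA count was 1 without HT lithium male 2 or WT vehicle male 2, and the AMPA count 1 without HT lithium male 3, where 1 gene was lower, as were 2 without HT lithium male 4. With the length and GC trend removed 1 NMDA or metabotropic gene was higher and 1 lower, and 3 AMPA genes were higher, but neither Grin2b nor Cacng8 passed (adjusted p = 0.0619 and 0.397).

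Of 32 postsynaptic density scaffolds 1 was higher (3.12%) and 2 lower (6.25%), no more than the 7.15% and 6.48% of all genes tested. The lower count was 5 without HT lithium male 4. Begain, a partner of PSD-95, ran from 3832 to 5632 (median 4339) against 3152 to 3889 (median 3412) and rose by 0.34 ± 0.066 (adjusted p = 0.000421). Shank1, a master scaffold, ran from 12070 to 20450 (median 17300) against 17180 to 25910 (median 21660), a difference of -0.39 ± 0.102, and Nlgn3, an adhesion protein, from 3391 to 4010 (median 3617) against 4021 to 4652 (median 4467), a difference of -0.26 ± 0.057 with no overlap. Dlg4, which encodes PSD-95, did not pass (-0.09 ± 0.057, adjusted p = 0.32), nor did Tanc1, the relative of Tanc2 (0.08 ± 0.121, adjusted p = 0.708). Of 11 genes in a list of Tanc scaffolds and kinase partners 0 were higher and 1 was lower (9.09%, beside 6.48% of all genes tested). This was Ptprs, a receptor phosphatase (-0.15 ± 0.045), which did not pass without HT lithium male 2.

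Of 42 presynaptic genes of transmitter release 7 fell (16.7%, beside 6.48% of all genes tested) and 0 rose (median -0.05). Rims1, an active-zone scaffold, ran from 6590 to 9532 (median 8365) against 8783 to 11170 (median 10270), a difference of -0.33 ± 0.089, and Rims3 and Vamp1, a vesicle fusion protein, differed by -0.23 ± 0.051 and -0.27 ± 0.075. Of 41 voltage-gated potassium channels 5 fell (12.2%) and 0 rose (median -0.08). Among those that fell was Kcnh3, a channel of forebrain neurons, which ran from 3342 to 4619 (median 4391) against 4556 to 5127 (median 4815) and differed by -0.18 ± 0.046. The presynaptic count was 4 without HT lithium female 4 or HT lithium male 2. The potassium channel count was 2 without either of these, 3 without HT lithium male 1 and 8 without HT lithium male 4. Both lists hold long genes, with median transcripts of 4571 and 5046 bases, and with the length and GC trend removed 3 and 1 fell. Of all genes with transcripts of 3684 to 5042 bases 7.51% were lower, and of those with longer ones 14.1%.

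Of 20 long noncoding RNAs 7 were lower and 1 higher, with a median of -0.09. Meg3, Rian and Mirg, transcripts of the imprinted Dlk1-Dio3 region, differed by -0.28 ± 0.067, -0.22 ± 0.042 and -0.32 ± 0.074. Rian ran from 20430 to 23130 normalized reads (median 21870) against 23500 to 26520 (median 25270) with no overlap. Snhg14, the imprinted transcript that hosts snoRNA clusters and runs antisense to Ube3a, ran from 3319 to 6669 (median 6547) against 7752 to 9355 (median 8550), a fall to 0.721 without overlap (-0.47 ± 0.087, adjusted p = 0.000179). No source used here states whether the counting took account of strand, so Snhg14 cannot be fully told from genes it overlaps. The count was 6 without HT lithium female 4. With the length and GC trend removed 3 were lower and 0 higher, the median was -0.03, and Meg3 and Rian did not pass (adjusted p = 0.0804 and 0.152). In WT lithium against WT vehicle 7 of the 20 were lower, and in HT vehicle against WT vehicle none passed.

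Of 35 splicing factors 3 were higher (8.57%) and 4 lower (11.4%), beside 7.15% and 6.48% of all genes tested. Rbm3, a cold-inducible RNA-binding protein, ran from 2375 to 5317 (median 3772) against 2320 to 2872 (median 2636) and rose 1.43-fold (0.52 ± 0.122, adjusted p = 0.00277). Clk4, a kinase of splicing factors, ran from 1288 to 1521 (median 1455) against 1539 to 1848 (median 1699), a difference of -0.23 ± 0.06 without overlap. The higher count was 1 without any of HT lithium female 4, HT lithium male 2, WT vehicle female 3, WT vehicle male 1 and WT vehicle male 2, while Rbm3 kept its call in each. In the circadian clock list 3 of 21 were lower (14.3%) and 1 higher (4.76%, under the 7.15% of all genes tested). Nr1d1, the repressor REV-ERB alpha, ran from 1640 to 2293 (median 1954) against 2016 to 2903 (median 2513), a difference of -0.37 ± 0.073 (adjusted p = 0.00046), and Per3 differed by -0.18 ± 0.048. The higher call was lost without any of HT lithium female 1, female 3, male 1 and male 2 and WT vehicle female 3, female 4, male 2 and male 4.

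Among layer markers, Pou3f1, a POU-domain factor of upper-layer and callosal neurons, ran from 560.1 to 752 (median 676.3) against 450.8 to 535.5 (median 486.8) and rose by 0.41 ± 0.081 without overlap (adjusted p = 0.000391). Penk, the precursor of enkephalin peptides, ran from 1345 to 3374 (median 1555) against 842.3 to 1388 (median 1170) and rose by 0.67 ± 0.186. It is also a marker of striatal projection neurons, whose summed markers ran from 17750 to 44510 in HT lithium and from 16650 to 22740 in WT vehicle; HT lithium female 2 was the library at 44510. Of the 23 striatal markers 2 were higher (8.7%, beside 7.15% of all genes tested) and 0 lower. The higher count was 1 without any of HT lithium female 2, HT lithium female 4, HT lithium male 2 and WT vehicle male 3. Six3, Isl1 and Serpina9 were at 0 in some libraries. The fit with tissue covariates given below counts Penk in the striatal sum, so it is no test of neighbouring tissue for Penk. That part was not tested otherwise, and Penk passed without each library in turn.

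Markers of myelinating oligodendrocytes had a lower sum in HT lithium. Their summed level ran from 89270 to 182700 normalized reads (median 124500) in HT lithium and from 112500 to 211000 (median 173500) in WT vehicle, a ratio of 0.75 that lay between 0.71 and 0.78 with each library left out in turn. An exact two-sided permutation test of the mean over the 9 and 9 libraries gave p = 0.00675, or 0.0382 adjusted over 17 sums. The 17 include Gm10221 and mt-Atp6, which separate the groups fully (permutation p = 4.11e-05 each) and make this adjusted p smaller. By the same adjustment over the other sums alone, the myelin sum would not be under 0.05. Of the 25 genes 23 had a negative difference and 4 passed, with a median of -0.32. Gjb1, connexin 32 of myelin, ran from 56.73 to 133 (median 103.7) against 119.5 to 248.9 (median 153.5), a fall to 0.568 (-0.82 ± 0.214, adjusted p = 0.00747), and it passed without each library in turn.

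The myelin count was 1 without HT lithium female 4 or WT vehicle male 2, 2 without HT lithium male 2, HT lithium male 3 or WT vehicle female 2, and 10 without WT vehicle male 3. With only the 18 libraries it was 11. The list median was -0.23 in HT vehicle against WT vehicle and -0.16 in WT lithium against WT vehicle, where no gene of the list passed. Among WT fluoxetine females it was -0.80 in the 3 libraries with Gm10221 reads against the 2 without. Markers of oligodendrocyte precursors had a summed ratio of 1.03.

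Vessel cell markers had negative list medians and summed ratios under 1, neither sum past the threshold after adjustment. All 13 pericyte and smooth muscle genes had a negative difference (median -0.21) and 2 passed, of which Notch3, a receptor of mural cells, ran from 431.5 to 534.2 (median 481.1) against 480.8 to 659 (median 563.3), a difference of -0.22 ± 0.059. The count was 1 without any of HT lithium female 4, male 1 and male 3 and WT vehicle female 1, female 2, female 3, male 2 and male 3. Their summed ratio was 0.905, between 0.892 and 0.927 with each library left out in turn, with an exact permutation p of 0.0172, or 0.0708 after adjustment, and that of endothelial markers was 0.923 with 0.115. Of 19 endothelial markers 3 were lower; the count was 5 without HT lithium female 3, 1 without HT lithium female 5, HT lithium male 2, WT vehicle female 2 or WT vehicle male 3, and 0 without HT lithium male 3 or WT vehicle female 1. Astrocyte markers had 0 of 18 genes past the threshold. Olfactory bulb and neuroblast markers had 0 of 22, with a median of 0.56 and a summed ratio of 1.21.

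Of 29 interferon-response genes 26 had a positive difference, with a median of 0.25, but 2 passed, both higher (6.9%, beside 7.15% of all genes tested). Ifit2, an interferon-induced RNA-binding protein, ran from 356.9 to 528.4 (median 389.5) against 296.5 to 381.3 (median 318.8) and rose by 0.36 ± 0.096 (adjusted p = 0.00902). The other was Lgals3bp, whose call was lost without HT lithium female 4 or HT lithium male 2. The count was 1 without either of these, 5 without HT lithium female 1 and 7 without HT lithium male 4, and 4 with only the 18 libraries. The list median was 0.24 in HT vehicle against WT vehicle, where none passed, and 0.10 in WT lithium against WT vehicle.

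With summed markers of neighbouring tissue as covariates several of these counts moved: 13 myelin genes, 5 NMDA and metabotropic genes, 7 splicing factors, 3 GSK3 and WNT genes and 1 endothelial marker were lower, 6 AMPA and 8 unfolded protein response genes were higher, and 4 postsynaptic scaffolds were higher and 4 lower. Presynaptic genes had 4 higher and 7 lower, and striatal markers 3 higher and 4 lower. The covariates are the sums of the striatal and of the olfactory bulb markers, so the striatal counts were taken after adjustment for their own sum and are not read further.

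**Figure D5:**
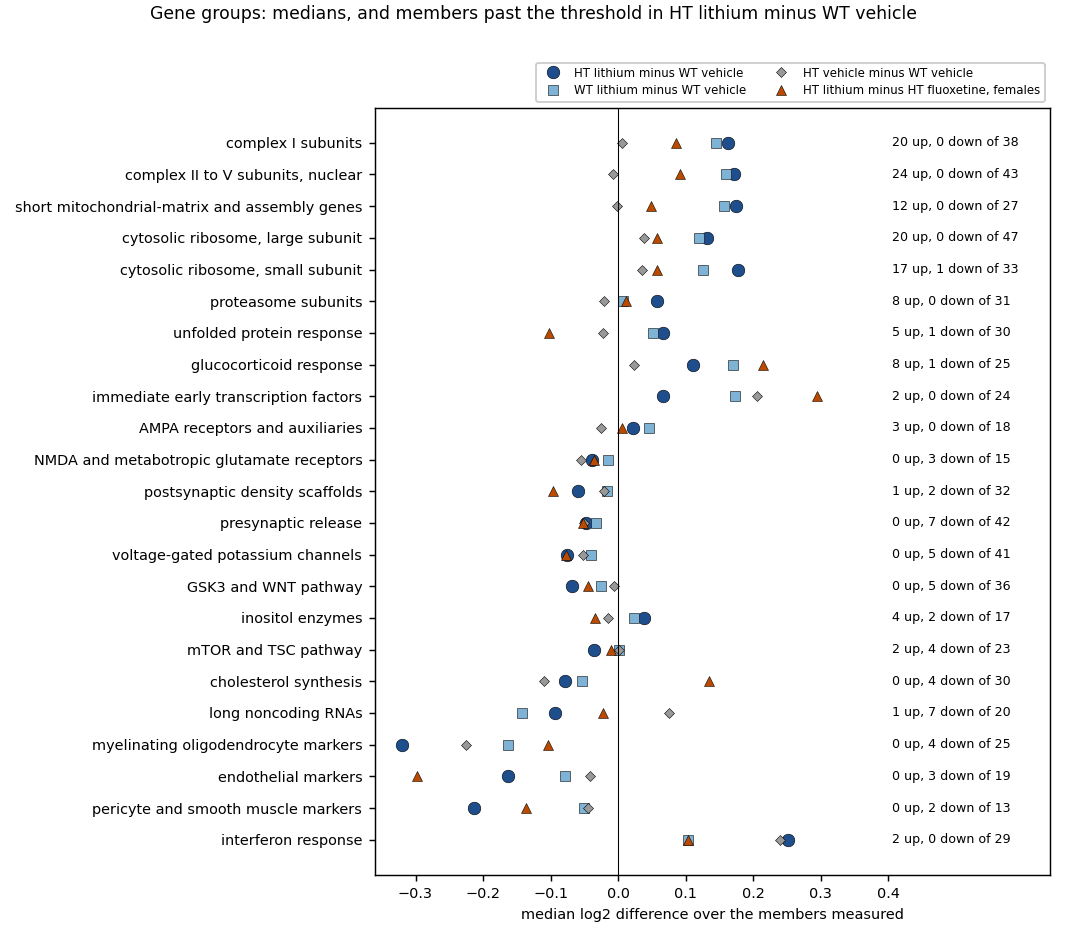
Median difference (log2, x axis) of each of 23 gene lists (y axis) in HT lithium against WT vehicle, WT lithium against WT vehicle, HT vehicle against WT vehicle and HT lithium against HT fluoxetine in females, with the counts of higher and lower genes for the first beside each list. The respiratory chain and ribosome lists lie right of zero in both lithium comparisons and near it in HT vehicle, while the myelin list lies at -0.32 in HT lithium.

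HT lithium was last set against HT fluoxetine, which shares the genotype label and, in females, the presence of Gm10221 reads. Over both sexes 1121 genes passed (6.25% of those tested), and the count was 670 without HT lithium female 4 and 705 without HT lithium male 2. In females, where all 10 libraries have Gm10221 reads, 96 passed (0.536%), 51 higher in HT lithium (0.285%) and 45 lower (0.251%). This female count ranged widely with single libraries: it was 13, 42, 170 and 149 without HT lithium female 4, 2, 1 and 3, and 8, 34 and 50 without HT fluoxetine female 4, 5 and 3. Of the genes in the comparison with WT vehicle, which shares the HT lithium libraries, 22 higher and 19 lower genes also passed here.

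Of the 44 lists, that of the glucocorticoid response had the most calls in the female comparison, 4 of 25 higher (0.285% of all genes tested were): Sgk1, Per1, Ddit4 and Arl4d. HT fluoxetine against WT vehicle, over both sexes, gave 332 passing genes. In that contrast 2 of the 25 glucocorticoid genes were higher and 6 lower, and 11 of 30 unfolded protein response genes were higher and 0 lower. The part of the fluoxetine side in the female calls was not tested. Sgk1, a kinase that raises sodium transport, was higher in HT lithium females by 0.63 (adjusted p = 0.000224), and Per1 and Ddit4 by 0.43 and 0.64. Against WT vehicle Sgk1 differed by 0.22 ± 0.072 (adjusted p = 0.0293), a call lost without HT lithium female 4, HT lithium male 2, HT lithium male 3, WT vehicle female 2 or WT vehicle male 3, and the other two did not pass, as given above. Pdia4, Manf and Dnajc3 of the unfolded protein response were lower than in HT fluoxetine females, by -0.42, -0.27 and -0.23, and none of them passed against WT vehicle. Igfbp3 was higher in both (0.57 here, adjusted p = 0.0442). Ndufc2, Cox5b, Cebpb and Zfp366 differed by 0.11, 0.16, 0.30 and -0.10 here, with adjusted p between 0.229 and 0.813. The medians of complex I and of complexes II to V were 0.09 and 0.09, and no member of either list, nor of the ribosomal lists, passed.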

How the data were processed

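RNA was sequenced from prefrontal cortex of 58 mice with a strand-specific kit for polyadenylated RNA, per the labels' protocols. The authors deposited a normalized signal for 18088 Ensembl genes, in which gene counts were scaled by library size factors. The build was GRCm38 and the tools DESeq2 1.19.11, Salmon 0.11.2 and R 3.6.0, according to the submitters' processing notes, with no options named. Dividing each column by its smallest step (0.788 to 1.3) returned whole reads for 100% of values within 0.01. In 11 columns, 4 of them in the groups compared, the step is so near 1 that this check does not tell reads from rounded values.

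Genes with a value of 10 or more in at least 4 libraries were kept. limma 3.58.1 with trend (R 4.3.3) was fitted to log2(value + 1) over 58 libraries in 12 groups of genotype, drug and sex, two-sided, and p-values were adjusted by the Benjamini-Hochberg method over 17925 genes. The alternatives included edgeR 4.0.16 and DESeq2 1.42.0 on recovered reads. None of 32 same-group pairs of libraries looked like a repeat of one library (lowest chi-square over its degrees of freedom 3.54). The fit was tried on simulated data with 17925 genes, of which 200 averaging 1 CPM or more were changed, 50 per fold. It recovered 16%, 62%, 86% and 100% of genes changed 1.1-fold, 1.25-fold, 1.5-fold and 2-fold, and 3.65% of its calls were unchanged genes. Noise was drawn independently for each gene and library, and far more genes passed in the data (2443), so these shares need not hold for them. Positions and transcript lengths came from the annotation of GRCm38, in which 18077 genes matched, and promoters from RefSeq.

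Named genes were Tanc2, the 14 with the smallest p in each direction if they passed and averaged 1 CPM or more, the 5 with the largest difference in each direction with a mean of at least 100, up to 5 of each list in each direction (2 where none passed) and up to 3 for other comparisons, leaving out unnamed gene models and pseudogenes. Gm10221, Gsk3b, Impa1, Dlg4, Tanc1 and Ddit4 were added after their values were seen. Gene lists and comparisons were chosen with earlier results of these data known, and the contrast of WT lithium with HT vehicle was chosen after seeing the data. Some genes are not reported here by name and stay in the counts.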

Additional observations from a re-analysis of the deposited data

Results flagged for a closer look

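Within a group of 9 libraries, a library was singled out where its gap to its nearest neighbour, as a share of the group's range, exceeded Dixon's 95% critical value. This was done for 72 groups of 36 genes and found 11; chance alone gives about 1 in 20. HT lithium female 4 was the highest of its group for 7 genes: Trir at 1905 (next 1473), Ndufv2 at 3627 (next 3059), Cox5b at 6230 (next 4854), C1qbp at 1575 (next 1218), Gnptg at 1896 (next 1651), Ndufab1 at 2257 (next 1826) and Zfp580 at 944.3 (next 661.6). In WT vehicle, female 1 was the highest for Zfp366 at 498.4 (next 405.8), female 2 for Brwd1 at 4173 (next 3947), and male 3 for Etnppl at 531.6 (next 324.2) and Igfbp3 at 696.9 (next 593.9). Without HT lithium female 4, Ndufv2, Cox5b, Trir and Zfp580 still passed.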

How the results depend on the processing

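The count of 2443 genes for HT lithium against WT vehicle was 1560 with only the 18 libraries compared, 5 with the presence of Gm10221 reads as a term beside the 12 groups, and 0 with that term and sex additive; in the first of these terms the Gm10221 effect is set by 3 against 2 WT fluoxetine females alone. The corresponding values were 82, 2 and 1096 in females (18 libraries, Gm10221 term with 12 groups, neighbouring tissue covariates) and 108, 1 and 1000 in males. The sex difference gave 2 in DESeq2. HT lithium minus HT vehicle gave 586 and 0 with the Gm10221 terms, WT lithium minus WT vehicle 203 and 3, and HT lithium minus HT fluoxetine 233 and 218, with 1862 under the tissue covariates. HT lithium minus WT lithium gave 14 in DESeq2, 8 with a minimum value of 50 in at least 9 libraries, 10 and 9 with the Gm10221 terms, 3 with tissue covariates and 1 with the length and GC trend removed. HT vehicle minus WT vehicle gave 3 in DESeq2, the interaction 4 in DESeq2 and 1 with tissue covariates, and HT lithium minus HT fluoxetine in females 183 in DESeq2. The cause was not tested.

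With each library left out in turn the counts ran from 1706 to 2838 (without HT lithium male 4) for the whole comparison, 104 to 931 in females, 128 to 683 in males, 0 to 0 for the sex difference, 0 to 40 for HT lithium minus WT lithium, 670 to 1573 for HT lithium minus HT fluoxetine and 8 to 170 for its females.

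Of the 175 named genes that passed, 171 kept call and direction in edgeR, 173 in DESeq2, 175 under each of the filters and pseudocounts, 169 with quantile normalization, 163 with tissue covariates, 144 with 18 libraries, 135 with the length and GC trend removed, and between 135 and 170 with a library left out. With the Gm10221 term beside 12 groups 0 of them passed, 144 kept their direction and 31 reversed: Scand1 -0.26, mt-Atp6 -0.39, Gjb1 0.27, Apln 0.34, Pla2g3 -0.023, Nedd9 -0.17, Jund -0.024, Cryab 0.24, Srebf2 0.11, Mvd 0.24, Rps6 0.11, Psma4 -0.001, Hnrnpd -0.095, Inpp5f -0.041, Inpp1 -0.016, Cebpd -0.22, Nr3c1 0.045, Cacng4 -0.14, Nlgn3 0.30, Ptprs 0.053, Vamp1 0.12, Kcnh3 0.025, Kcnc2 0.011, Scn2b 0.18, Ifit2 -0.097, Trf 0.42, Mobp 0.21, Tie1 0.016, Esam 0.1, Penk -0.012 and Gm10221 -0.047. List medians reversed for cholesterol synthesis (0.11), AMPA receptors (-0.011), presynaptic release (0.12), potassium channels (0.025) and myelin (0.37). With sex additive 6 genes reversed: Nedd9 -0.089, Hnrnpd -0.001, Inpp1 -0.021, Cebpd -0.03, Nlgn3 0.091 and mt-Co2 0.47, and the presynaptic median (0.006).

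With the replicate number as a replicate block 2444 genes passed, 655 in females and 402 in males. Libraries with the same number did not in general deviate together (r from -0.314 to 0.27 over 25 pairs, median -0.00607, 5 above 0.1), so no pairing by number was seen. Some WT vehicle males carry another number in the library name, and a pairing by that name was not tested. In simulated data with 200 changed genes, changes of 1.1-fold were mostly not recovered (16%). That share need not hold for the real comparison, where many more genes passed.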

Other observations

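Of 24 immediate early transcription factors 2 were higher against WT vehicle (8.33%, beside 7.15% of all genes tested), of which Jund passed without each library in turn. The count was 1 without any of HT lithium female 4, HT lithium male 1, WT vehicle female 2, WT vehicle male 2 and WT vehicle male 3, and without HT lithium male 1 2 genes were lower. Chromatin regulators linked to autism had 2 of 37 higher and 2 lower (5.41% each), beside 7.15% and 6.48% of all genes tested. With the length and GC trend removed 8 were higher and 0 lower, with a median of 0.03, and with neighbouring tissue covariates 6 were lower. The lower count was 0 without HT lithium female 4, 1 without HT lithium male 2, WT vehicle male 1 or WT vehicle male 3, 4 without HT lithium female 2, HT lithium female 5 or HT lithium male 4, and 5 without HT lithium female 1. Adnp, a homeobox protein, ran from 1674 to 2391 normalized reads (median 2153) in HT lithium and from 1562 to 1974 (median 1704) in WT vehicle, a rise of 0.31 ± 0.082 (limma adjusted p = 0.00792). Bcl11a, a transcription factor of cortical neurons, ran from 2883 to 3494 (median 3218) against 2723 to 3005 (median 2802), a rise of 0.20 ± 0.055 (limma adjusted p = 0.0127). Atp1b1, a sodium pump subunit, ran from 45890 to 52220 (median 48310) against 40350 to 47670 (median 44460), a rise of 0.11 ± 0.032 (limma adjusted p = 0.0128); it did not pass with the length and GC trend removed (adjusted p = 0.0972) or with only the 18 libraries (adjusted p = 0.0864).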
